A study of Mus musculus with 4 samples.

Results

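The comparison described here is between the pair of libraries numbered 3 and the pair numbered 2 in the deposited expression table of mouse periosteal cells. Each pair holds 1 PDGFRα reporter+ and 1 PDGFRα reporter− library, so the number could be compared within each population. The number was read from the column headings, and of 45802 gene symbols listed, the 14415 without a blank in any library were compared. No source used here says what the number stands for. Culture, pool of animals, date of preparation and library batch may each go with it, which is not stated, and they cannot be told apart.

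All cells came from the periosteum of femurs and tibias of male Pdgfrα-mTmG mice, 9 to 10 weeks old. The animals had received tamoxifen on 5 days, at 150 mg/kg each day, and tissue was taken 14 days after the last injection. Tamoxifen activates a CreER under the *Pdgfra* promoter, after which a cell and its descendants carry membrane GFP in place of membrane tdTomato. PDGFRα reporter+ therefore means that the reporter recombined, and PDGFRα reporter− that it did not. Cells of several mice were pooled, 3 to 6 per population in the sample labels and a larger pool in the methods. They were grown in 15% serum with bFGF at 10 ng/mL, passaged 1 time, and sorted by FACS after cells with CD31, CD45 or Ter119 were gated out. Neither a dose, nor a treatment, nor an age separates the numbers in the labels, which speak of replicates 1 and 2 and do not use 2 and 3.

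The periosteum is the connective tissue sheath of bone, with an outer fibrous layer of collagen-producing fibroblasts and an inner layer of skeletal progenitors. Its stromal cells can give rise to bone and cartilage, and mesenchymal cells of this kind can also take on fat, tendon or contractile features in culture. Genes of these lineages, and of the matrix that the cells secrete, are the ones described below.

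Values are log2 expression after quantile normalization, with 1 value per gene and library, and they ran from −10.07 to 11.73 with a median of 1.48. Between 15423 and 15605 genes had a value in a library. The depth behind a value is unknown, and a level cannot be set against that of another gene, since no length-corrected unit is stated. Stromal genes had high values in all 4 libraries: *Pdgfra*, the receptor itself, lay between 7.44 and 7.87 (difference −0.29, adjusted p = 0.195) and the type I collagen gene *Col1a2* between 8.47 and 9.07. The *Pdgfra* values of the reporter+ and reporter− libraries overlapped. *Pecam1*, which encodes CD31, lay between −4.79 and −1.11, and *Ptprc*, which encodes CD45, between −2.30 and −0.39. The macrophage lysozyme gene *Lyz2*, however, lay between 6.27 and 7.88. *Xist*, made by female cells, had no value in any library. All 8 listed nuclear and long noncoding RNAs, *Malat1* among them, were blank too, so the blank is no check of sex.

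Differences are given as number 3 minus number 2 on the log2 scale, averaged over the populations, with a standard error (SE) from limma. In pairs of values the PDGFRα reporter+ library comes first. A gene is called higher or lower where limma's two-sided test, with population as a block, passed an adjusted p of 0.05. The number separated the libraries far more than the population did. Of the 14415 genes, 1654 (11.5%) were called higher and 1411 (9.79%) lower in number 3, 21.3% in either direction, whereas 29 (0.201%) were called between the populations. In a gene list, counts of calls are to be read beside these shares over all genes. The SD of the difference across genes was 0.846 for the number and 0.413 for the population. Values in number 3 lay above both number 2 values for 5246 genes (36.4%) and below both for 4152 (28.8%).

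The populations mostly moved the same way between the numbers, in 10643 genes (73.8%) and in all 3065 called genes, where agreement helps a gene to be called. The differences in the populations had a correlation of 0.681 across genes, and genes are not independent of each other. Among called genes whose mean log2 value was 0 or more, 349 were higher and 376 lower by at least 1, which is 2-fold. At a difference of at least 4, 12 were higher and 2 were lower. The test has 1 residual degree of freedom and borrows its spread from other genes through a trend with level. Without that trend, or without borrowing, limma called 0 genes, with 3909 and 1661 genes at an unadjusted p under 0.05. Leaving out the trend among the 10224 genes whose mean was 0 or more gave 2017 calls. Leaving out a library left 150 higher and 75 lower genes without the reporter+ library numbered 2, 249 and 153 without the reporter− library numbered 2, 388 and 486 without the reporter+ library numbered 3, and 420 and 614 without the reporter− library numbered 3. For a single gene the smallest exact two-sided permutation p of 2 libraries against 2, with population ignored, is 0.333. Permuting within each population allows fewer arrangements, so that its smallest p is larger. Centring the libraries on ribosomal protein genes moved the median of all genes by −0.107 and gave 783 higher and 1192 lower genes.

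**Figure D1:**
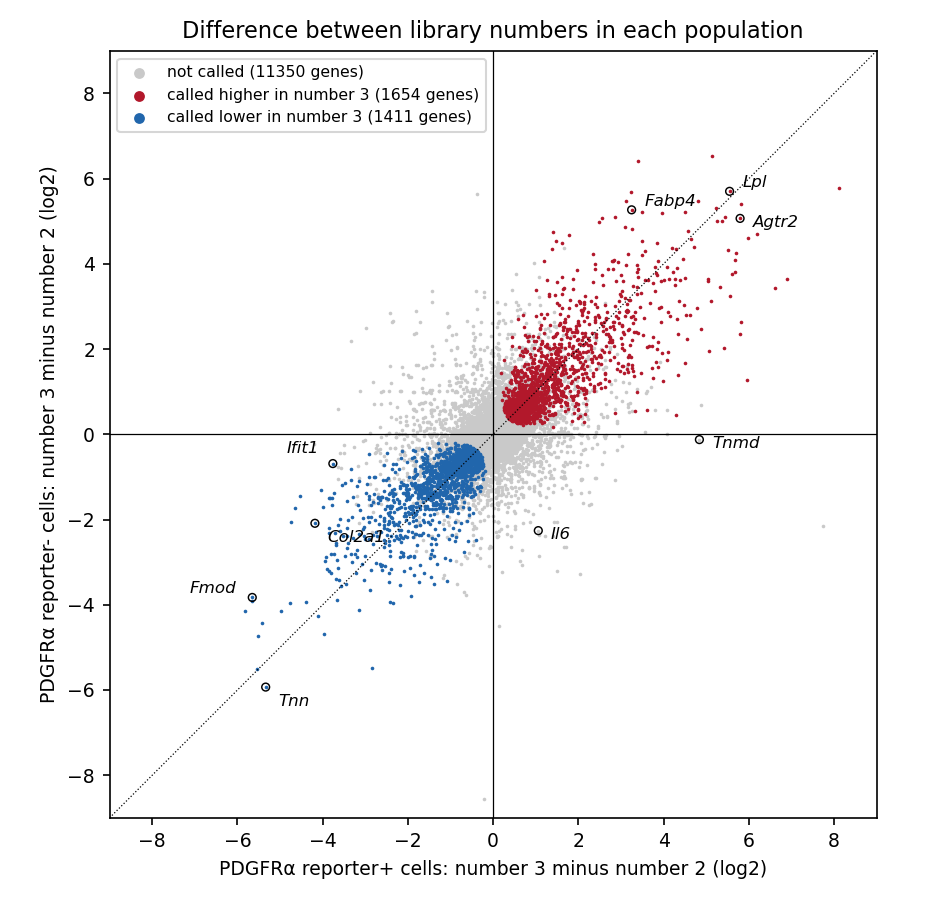
Difference between the numbers (number 3 minus number 2, log2) in PDGFRα reporter+ cells on the x axis and in PDGFRα reporter− cells on the y axis, 1 point per gene, with called genes in color. Called genes lie near the diagonal, from *Tnn* and *Fmod* at the lower left to *Lpl* and *Agtr2* at the upper right, while *Tnmd*, *Il6* and *Ifit1* lie away from it.

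The 10 most positive and 10 most negative called genes without overlap between the numbers, all with means of 0 or more, were taken as a group, and those reported here are plotted by library. *Lpl* encodes lipoprotein lipase, which releases fatty acids from circulating triglyceride (chr8:68880555-68906932). It stood at 1.03 and 0.96 in number 2 and at 6.57 and 6.66 in number 3, a difference of 5.62 ± 0.12 (SE, n = 2 libraries per number, adjusted p = 9.57e-08) or 49.3-fold. *Agtr2*, the type 2 angiotensin II receptor, stood at 0.42 and −0.28 in number 2 and at 6.22 and 4.79 in number 3, a difference of 5.43 ± 0.18. *Adamts15*, a secreted protease that cleaves proteoglycans, stood at −0.76 and −0.77 against 4.46 and 4.53, a difference of 5.26 ± 0.16. In *Lpl* and *Adamts15* the populations were close to each other within a number, and in *Agtr2* the reporter+ library was the higher one in both numbers.

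*Rarres2*, which encodes the adipokine chemerin, rose from 0.22 and 0.60 in number 2 to 5.59 and 5.60 in number 3. *Apod*, an apolipoprotein, stood at −0.15 and 0.13 against 5.51 and 3.93. Further higher genes of the 10 were *Col28a1*, *Gzme*, *Col15a1* and *Fabp4*, with differences from 4.26 to 4.60. *Gzme* encodes a granzyme of a gene family with near copies, and how reads shared between copies were counted is not stated.

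*Fmod* was the most negative of the 10 lower genes. It encodes fibromodulin, a small proteoglycan that binds collagen fibrils (chr1:134037254-134048280), and it stood at 5.49 and 5.06 in number 2 and at −0.16 and 1.23 in number 3, a difference of −4.74 ± 0.33 (adjusted p = 4.7e-05). *Eef1a2*, a translation elongation factor of muscle and nerve, stood at 3.65 and 3.63 against −1.32 and −0.52, a difference of −4.56 ± 0.22. *Prelp*, a proteoglycan of the same family as *Fmod* encoded on the same chromosome (chr1:133910304-133930102), stood at 5.56 and 5.95 against 1.93 and 2.82. *Nt5e*, which encodes the mesenchymal surface enzyme CD73, stood at 4.58 and 4.10 against 1.10 and 1.25, a difference of −3.16 ± 0.17. The others were *Itgb7*, *Brinp3*, *Aldh3a1*, *Apol9b*, *Pcolce2* and *Ngef*, with differences from −3.77 to −3.14.

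**Figure D2:**
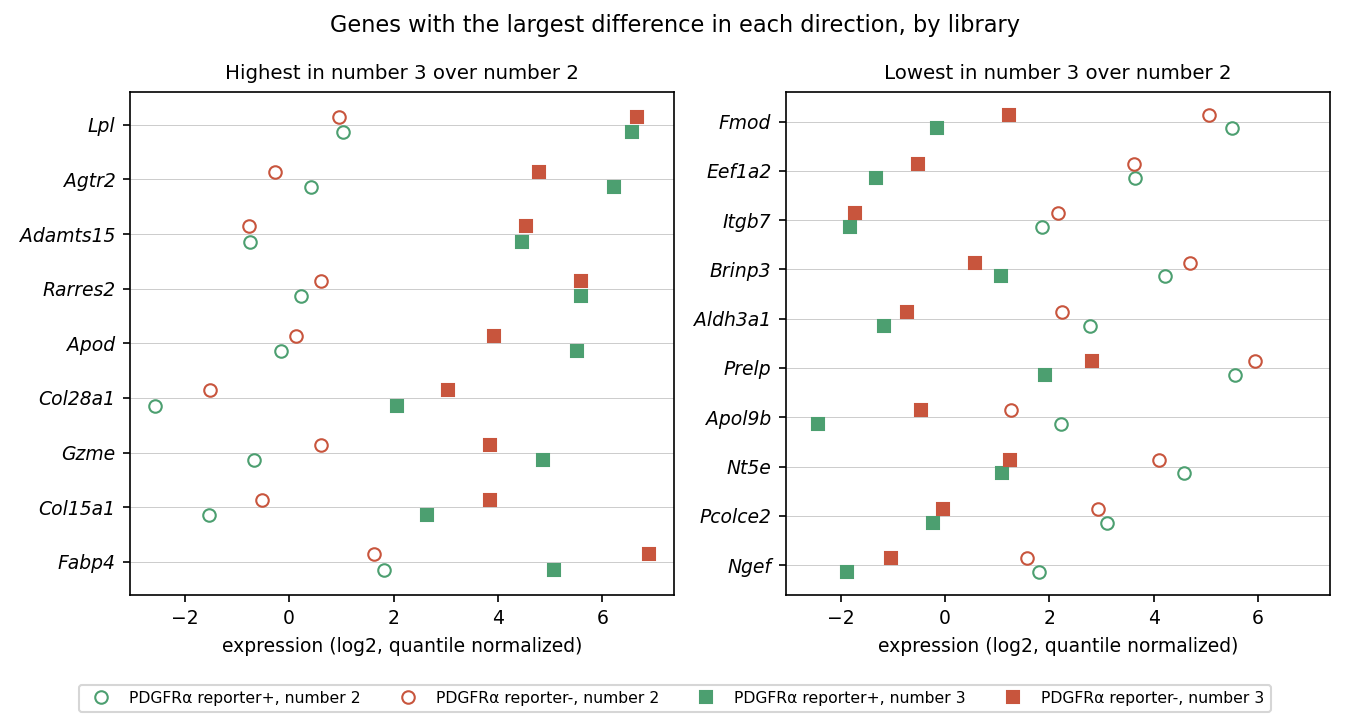
Log2 expression in each library for the genes reported here among the 10 with the most positive and the 10 with the most negative difference, taken from called genes whose mean was 0 or more and whose numbers did not overlap. Colors mark the population, and open circles and filled squares mark numbers 2 and 3. In every gene plotted both number 3 libraries lie on the same side of both number 2 libraries.

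Genes of the adipocyte lineage were called in the higher direction alone. Of 24 listed genes 15 were tested, and 9 were called higher and 0 lower (10 and 1 at an unadjusted p under 0.05 in limma), with a median difference of 0.95 beside 0.047 for all genes. The calls covered regulators as well as lipid-handling genes. *Pparg*, the nuclear receptor that directs fat cell differentiation, stood at 0.48 and 0.18 in number 2 and at 2.50 and 3.26 in number 3, a difference of 2.56 ± 0.24 (adjusted p = 0.00019). *Cebpa*, its partner transcription factor, stood at 2.40 and 2.46 against 4.34 and 5.00. *Fabp4*, the fatty acid carrier of fat cells (chr3:10204342-10208616), stood at 1.82 and 1.63 against 5.07 and 6.90, or 19.1-fold. *Apoe*, which carries lipid out of cells, stood at 3.07 and 1.89 against 6.17 and 6.75.

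The early regulators *Ebf2* (2.15) and *Ebf1* (0.95), the fatty acid receptor *Cd36* (1.57) and the transcription factor *Klf15* (0.93) were called higher too. Members that were not called included *Cebpb* (−0.07), *Cebpd* (0.07), *Zfp423* (0.46), *Plin4* (0.78) and *Dgat2* (−0.47). *Cebpb* and *Cebpd* encode factors that act ahead of *Pparg* in differentiation, and their levels between 5.18 and 5.73 were close in all 4 libraries.

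Markers of mature fat cells were blank or at the foot of the scale in number 2 and could not be tested. *Adipoq*, which encodes adiponectin, was blank and at −5.69 in number 2 and stood at 2.74 and 5.20 in number 3. *Cfd*, or adipsin, stood at −3.85 and blank against 3.48 and 4.89. *Plin1*, the coat protein of lipid droplets, was blank in both number 2 libraries and stood at 0.30 and 3.03 in number 3. Blank values also marked number 2 in *Adig* and *Cidec*. *Cidea*, a lipid droplet protein of brown fat, went the other way, at −5.73 and −3.99 in number 2 and blank in number 3, while *Lep* had no value in any library. In *Fabp4*, *Adipoq*, *Cfd* and *Plin1* the reporter− library of number 3 was the highest of the 4. In 11 of the 15 tested members the difference was larger in the reporter− than in the reporter+ libraries. These libraries are bulk samples, so that more cells of a type and more RNA per cell cannot be told apart.

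Macrophage markers gave 10 higher and 1 lower calls among the 26 tested of 30 listed, although CD45+ cells had been gated out. Their median of 0.58 was 0.33 in the reporter+ and 0.76 in the reporter− libraries. It became −0.043 without the reporter− library numbered 2, in a fit that, like all fits without a library, had no population block. The median difference between the populations over this list was 0.96, higher in reporter+. The summed level of the list was 8.30 and 7.05 (log2) in number 2 and 8.42 and 7.86 in number 3. The numbers overlapped, while number 3 was higher within each population. *Lyz2*, the macrophage lysozyme, stood at 7.65 and 6.27 against 7.88 and 7.25, *Adgre1* (F4/80) at 1.36 and −0.01 against 2.17 and 1.27, and *Csf1r* at 1.08 and −0.11 against 1.60 and 1.13. *Trem2*, a lipid receptor of macrophages, was lower by 1.44. Leaving out any library, or the population block, left 0 macrophage genes called higher. *Lpl*, *Apoe* and *Fabp4* are also expressed by macrophages, and the part of these cells in the adipocyte result was not tested. With any 1 library left out, 3 to 6 adipocyte genes were still called higher, fewest without the reporter+ library numbered 2.

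Cartilage genes went the other way. Of 22 listed genes 16 were tested, 8 were called lower and 1 higher, with a median of −0.73. *Sox9*, the regulator of cartilage formation, stood at 1.97 and 2.27 in number 2 and at 1.29 and 1.48 in number 3, a difference of −0.73 ± 0.16 (adjusted p = 0.012). Its partners *Sox5* (−1.46) and *Sox6* (−2.35), which act with it on cartilage matrix genes, were lower by more. *Acan*, the large cartilage proteoglycan aggrecan (chr7:79053226-79115099), stood at −1.09 and −1.62 against −4.91 and −4.89, a difference of −3.54 ± 0.48. *Cspg4*, the surface proteoglycan NG2, stood at 3.32 and 3.74 against 0.84 and 1.90.

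*Cilp* (−1.20), *Barx1* (−1.02) and *Trps1* (−0.51) completed the lower calls, and *Nkx3-2*, a homeobox gene of cartilage progenitors, was higher by 1.16. *Col2a1*, the fibrillar collagen of cartilage, was listed with the collagens and stood at 2.86 and 3.32 against −1.33 and 1.23 (difference −3.14, adjusted p = 0.00082). The hypertrophic cartilage collagen *Col10a1* was lower by 1.55. Chondromodulin (*Cnmd*, listed as *Lect1*) was blank in number 2 and stood at −1.67 and −1.06 in number 3. Of the 16 tested genes, 12 had a mean below 0. Leaving out 1 library gave 0 to 5 lower calls, 0 without the reporter+ and 1 without the reporter− library numbered 2.

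Among 10 tested tendon and ligament genes, 4 were called lower and 1 higher, with a median of −0.40. The median was −0.07 in the reporter+ and −0.58 in the reporter− libraries, and −0.248 without the reporter− library numbered 3. *Scx*, or scleraxis, the transcription factor of tendon progenitors, stood at 0.92 and 1.86 in number 2 and at −0.79 and −0.27 in number 3, a difference of −1.92 ± 0.23 (adjusted p = 0.00063). *Mkx*, which maintains tendon cells, was lower by 0.80, while *Eya1* was higher by 0.70. *Tnmd*, the late tendon marker tenomodulin, stood at −6.02 and −1.82 against −1.18 and −1.94, so that it was higher in number 3 in the reporter+ libraries alone and was not called (adjusted p = 0.11). *Egr1*, also in this list, is taken up with the immediate early genes. With a library left out there were 0 to 2 lower calls, with 2 only when the reporter− library numbered 3 was left out.

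**Figure D3:**
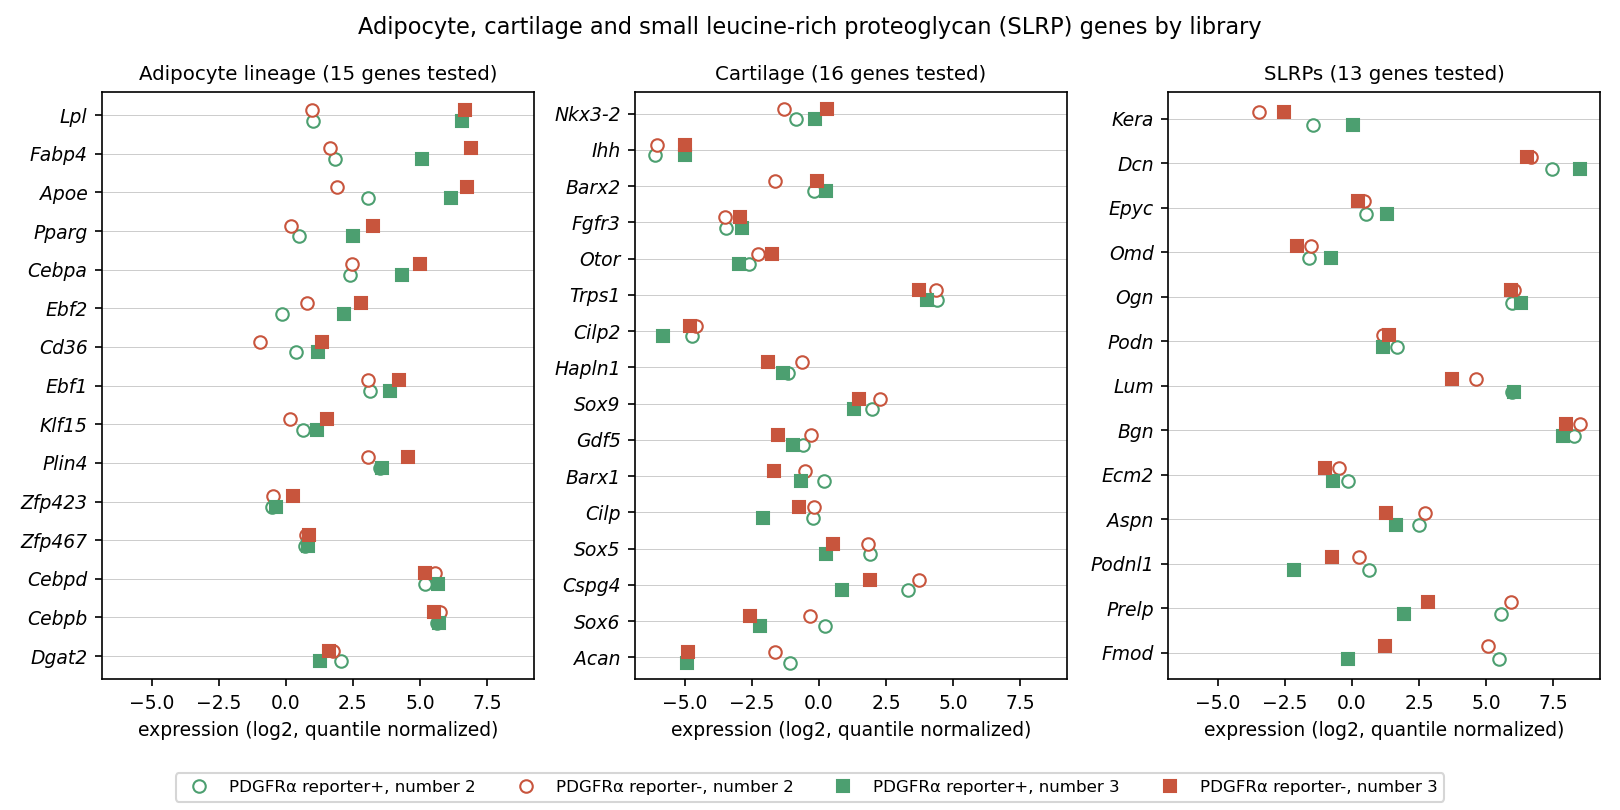
Log2 expression of the tested adipocyte lineage genes, cartilage genes and small leucine-rich proteoglycans in each library, ordered by their difference, with the population as color, number 2 as open circles and number 3 as filled squares. Number 3 lies above number 2 in most adipocyte genes and below it in most cartilage genes, and the proteoglycans are mixed.

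Small leucine-rich proteoglycans, which bind collagen and set the width of its fibrils, were unevenly affected. Of 13 tested genes 4 were called lower and 1 higher, with a median of −0.40 that became 0.070 without the reporter+ library numbered 2. Beyond *Fmod* and *Prelp*, the lower genes were *Aspn* (2.49 and 2.72 against 1.63 and 1.27) and *Podnl1* (0.62 and 0.24 against −2.16 and −0.75). The most familiar members were not called. Decorin (*Dcn*) stood at 7.47 and 6.67 in number 2 and at 8.49 and 6.51 in number 3, biglycan (*Bgn*) at 8.29 and 8.51 against 7.87 and 7.99, and lumican (*Lum*) at 5.96 and 4.61 against 6.04 and 3.73. The higher gene, keratocan (*Kera*), was close to the threshold at an adjusted p of 0.049 and changed sign without the reporter+ library numbered 3. Fits without a library gave 1 to 4 lower calls, 1 without the reporter+ and 2 without the reporter− library numbered 2.

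Fibrillar collagens, the load-bearing fibers of the periosteum, were split. Of 11 tested, 3 were called higher and 4 lower, with a median of −0.29. It became 0.154 without the reporter+ library numbered 2 and was 0.050 in the reporter− libraries alone. *Col3a1*, the type III collagen of loose connective tissue, stood at 9.85 and 9.37 in number 2 and at 10.78 and 10.49 in number 3, a difference of 1.03 ± 0.22 (adjusted p = 0.010). *Col1a2* was lower, at 9.02 and 9.07 against 8.47 and 8.53, and *Col1a1* stood at 7.64 and 7.85 against 7.44 and 7.48 without being called. The minor fibrillar chains *Col11a1* (−1.24) and *Col5a3* (−1.20), which help start fibrils, were lower, and *Col5a1* (0.48) and *Col24a1* (0.50) were higher. When a library was dropped there were 0 higher calls in every case and 0 to 2 lower calls, 0 without the reporter− library numbered 2 and 1 without the reporter+ one.

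Among 18 other collagens tested, 4 were called higher and 5 lower. *Col28a1*, a collagen of peripheral nerve sheaths, stood at −2.57 and −1.52 against 2.06 and 3.05. *Col6a5* (3.44), the transmembrane *Col23a1* (2.21) and the fibril-associated *Col14a1* (1.29) were the other higher ones. *Col12a1*, a fibril-associated collagen of periosteum and tendon, was lower at 6.28 and 6.11 against 5.38 and 4.52, as were *Col8a1* (−1.04), *Col7a1* (−1.36) and *Col6a2* (−0.67). Each library left out left 1 higher and 0 to 2 lower calls, 0 lower without either number 2 library.

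Basement membrane genes were called in both directions, with 5 higher and 5 lower among 22 tested. The higher ones were collagen IV chains, the nidogens and *Col15a1*. *Col4a1* and *Col4a2*, which encode the chains of the collagen IV network and lie head to head on chromosome 8, stood at 3.00 and 3.97 against 5.60 and 5.91 for *Col4a1* and at 3.08 and 3.90 against 5.20 and 5.45 for *Col4a2*. *Col15a1*, a collagen between basement membrane and stroma (chr4:47207655-47313167), stood at −1.54 and −0.52 against 2.65 and 3.84, a difference of 4.28 ± 0.19 (adjusted p = 4.8e-06). The nidogens *Nid1* and *Nid2*, which join laminin to collagen IV, were higher by 1.34 and 1.26. The lower ones were the laminin chains *Lamc3* (−2.81) and *Lama5* (−1.16), *Col18a1* (−0.74) and the heparan sulfate proteoglycans *Hspg2* (−0.70) and *Agrn* (−0.63). Fits on 3 libraries gave 1 to 5 higher calls, with 1 without either number 3 library, and 3 without the reporter+ library numbered 2. It gave 0 lower calls except without the reporter− library numbered 3, where 3 were called.

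Of 18 elastic fiber and microfibril genes, 7 were called higher and 2 lower, with a median of 0.39. It was 0.203 among members whose mean was 2 or more and 0.617 without the reporter+ library numbered 3. *Fbn1*, the microfibril backbone, stood at 5.90 and 6.11 in number 2 and at 6.50 and 7.09 in number 3. *Fbln1* (4.79 and 4.77 against 6.66 and 6.30), *Efemp1* (difference 1.33) and *Mfap2* (1.41) were higher, and so were elastin (*Eln*, 2.18) and *Mfap4* (3.43), both of which had a mean below 0. *Ltbp2*, which binds fibrillin, and *Fbln5*, which places elastin on microfibrils, were lower, at 7.46 and 7.24 against 5.11 and 5.79 for *Ltbp2* and at 4.15 and 4.49 against 2.61 and 2.82 for *Fbln5*. Leaving out a library gave 3 to 4 higher calls and 1 to 2 lower, 3 higher without the reporter+ library numbered 2 and without the reporter− library numbered 3.

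All 25 adhesive and matricellular glycoproteins were tested, and 6 were called higher and 7 lower. *Tnn*, or tenascin-W, a matrix protein of periosteum and bone-forming cells (chr1:160085029-160153692), had the most negative difference of any gene in the lists. It stood at 1.77 and 1.28 in number 2 and at −3.56 and −4.65 in number 3, a difference of −5.63 ± 0.33 (adjusted p = 2.1e-05) or 49.7-fold. Periostin (*Postn*), named for the periosteum, moved the other way, at −1.13 and 0.14 against 2.04 and 3.04, or 8.18-fold. *Tnc*, the related tenascin-C, was not called and had opposite signs in the populations.

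*Thbs3* (1.57), *Tnxb* (2.20), *Vtn* (3.70) and the TGF-β target *Ctgf* (1.19) were higher, and *Thbs4* (−1.99), *Wisp2* (−1.50) and *Tgfbi* (−0.76) were lower. *Spp1*, which encodes osteopontin, lay at the top of the normalized scale, at 11.73 in both number 2 libraries and 11.07 in both number 3 libraries, and was not called (adjusted p = 0.12). *Fn1*, or fibronectin, stood between 9.41 and 10.47. With a library left out there were 0 to 2 higher calls, 0 without the reporter+ library numbered 2, and 2 to 3 lower calls.

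Enzymes that process and crosslink collagen were divided, with 7 of 24 called higher and 6 lower. *Lox*, the lysyl oxidase that starts crosslinks, stood at 7.91 and 7.88 in number 2 and at 7.19 and 6.67 in number 3. Its relative *Loxl2* stood at 1.95 and 2.64 against 4.45 and 3.84, a difference of 1.85 ± 0.25. *Pcolce2*, which enhances cleavage of the procollagen C-propeptide, stood at 3.10 and 2.94 against −0.23 and −0.04, and *P4ha3*, a prolyl hydroxylase subunit, at 4.42 and 4.34 against 2.18 and 2.20. The lysyl hydroxylases *Plod1* (−0.93) and *Plod2* (−0.55) were lower, and *Loxl1* (0.65), *Bmp1* (0.56) and *Adamts2* (0.76), a procollagen N-propeptide protease, were higher. Fits without a library gave 0 to 3 higher calls, 0 without the reporter+ library numbered 2, and 2 to 6 lower calls, 2 without either number 2 library.

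Matrix proteases were higher in number 3 more often than lower. Of 35 tested proteases and inhibitors, 15 were called higher and 5 lower, with a median of 0.51. It was 0.249 among members whose mean was 0 or more and 0.169 at 2 or more, and 13 of the 35 had a mean below 0. *Mmp3*, or stromelysin 1 (chr9:7445822-7455975), stood at 6.73 and 4.82 in number 2 and at 10.49 and 8.37 in number 3, a difference of 3.65 ± 0.14 (adjusted p = 3.3e-06). The gap between the populations was about as wide in both numbers. The gelatinase *Mmp2* stood at 6.94 and 7.10 against 8.44 and 8.16, and the collagenase *Mmp13* at 5.06 and 3.88 against 6.34 and 5.15. *Adamts9* (3.17), *Adamts12* (1.74), *Adamts1* (1.05), *Adamts4* (0.74) and *Adamts5* (0.59) were higher besides *Adamts15*, and most of this group cleaves proteoglycans.

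Tissue inhibitors of these proteases did not share a direction. *Timp3*, which is bound to the matrix, stood at 6.34 and 6.10 against 3.22 and 4.33, a difference of −2.44 ± 0.25, and *Timp2* was lower by 0.96. *Timp4* was higher by 2.76, from −3.30 and −3.47 to −1.43 and 0.17. The membrane-bound *Mmp16* was lower by 1.54. When a library was dropped there were 3 to 6 higher calls, 3 without either number 2 library, and 0 to 3 lower calls.

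Osteoblast genes gave 5 higher and 2 lower calls among 21 tested. That is 23.8% and 9.52%, beside 11.5% and 9.79% of all genes. The regulators did not differ beyond the error: *Runx2* stood at 0.50 and 0.54 against 0.28 and 0.22, and *Sp7*, which encodes osterix, at −1.63 and −2.20 against −2.07 and −1.68. *Alpl*, the alkaline phosphatase of bone-forming cells, was higher at 1.00 and 0.37 against 1.96 and 0.99, a difference of 0.79 ± 0.19 (adjusted p = 0.020). *Dmp1* (3.29), osteocalcin 2 (*Bglap2*, 1.61), *Dlx3* (1.64) and *Msx1* (1.42) were higher, and all 4 had a mean below 0. *Bglap2* has near copies in the same cluster. *Tnfrsf11b*, or osteoprotegerin, the decoy for the osteoclast factor RANKL, was lower by 1.22, and podoplanin (*Pdpn*) by 0.54. The RANKL gene *Tnfsf11*, which is in the cytokine list, was lower by 1.54. The list median of 0.47 changed sign, to −0.27, among members whose mean was 0 or more. It was 0.022 without the reporter− library numbered 2, and 0.163 in the reporter+ and 0.507 in the reporter− libraries. Fits on 3 libraries gave 0 to 3 higher calls, with 0 except without the reporter+ library numbered 3.

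Of 33 mesenchymal and skeletal progenitor markers, all tested, 10 were called higher and 9 lower, with a median of 0.14. It became −0.063 among members whose mean was 0 or more, or 2 or more, −0.0041 with a pseudocount of 1 and −0.123 without the reporter+ library numbered 2. *Pi16* and *Dpt*, which mark fibroblasts of the adventitia and fascia, were higher, at −2.52 and −2.50 against 1.59 and 0.37 for *Pi16* and at 3.85 and 2.94 against 5.57 and 5.42 for *Dpt*. *Cxcl12*, the chemokine of perivascular stroma, stood at 5.58 and 4.94 against 7.13 and 6.93, a difference of 1.77 ± 0.14. *Hic1* (1.87), *Ebf3* (1.22) and *Cd34* (0.90) were higher as well.

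Besides *Nt5e*, the lower markers were the leptin receptor *Lepr* (0.05 and 0.58 against −1.36 and −0.63), the BMP antagonist *Grem1* (−0.77), *Vcam1* (−0.68), *Kitl* (−0.66), *Cd44* (−0.58), *Prrx1* (−0.54), *Thy1* (−0.53) and *Itgav* (−0.44). *Ctsk*, *Ly6a* and *Pdgfrb* were not called, with differences of −0.02, −0.11 and 0.25. *Nes*, which encodes nestin, stood at −0.04 and 1.05 against −0.83 and 1.41 and had opposite signs in the populations. Leaving out a library gave 2 to 4 higher and 1 to 2 lower calls.

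Contractile genes of smooth muscle gave 7 higher and 4 lower calls among 24. *Acta2*, smooth muscle actin, stood at 1.30 and 3.18 in number 2 and at 3.66 and 4.32 in number 3, so that the highest number 2 library came near the lowest number 3 library. *Tagln* (1.20), *Myl9* (1.21), *Tpm1* (1.13), *Cald1* (0.89), *Vcl* (0.65) and the integrin *Itga8* (1.77) were higher, and smoothelin (*Smtn*, −1.43), *Synm*, *Cnn2* and *Tpm2* were lower. Without a population block 1 gene was called higher, and leaving out a library gave 0 to 5, 0 without the reporter+ library numbered 2. The median of 0.13 changed sign without that library (−0.057) and without the reporter− library numbered 3 (−0.028). Pericyte genes were split, 3 higher and 3 lower of 10, with *Rgs5* higher by 2.16 and *Ndufa4l2* lower by 2.40. With any library left out 0 were called higher, and 1 was called lower without the reporter+ library numbered 3 and 0 otherwise.

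Transcription factors that record position in the limb also differed. Of 28 tested, 7 were called higher and 5 lower, with a median of 0.092 that became −0.015 with the libraries centred on ribosomal protein genes. *Hand2*, *Hoxd10* and *Hoxa13* were higher by 3.39, 3.10 and 2.31 from low levels, at −2.96 in both number 2 libraries against 0.06 and −1.37 for *Hoxa13*. *Hoxa11* (1.10) and *Pitx1*, a factor of the hindlimb, were higher, the latter at 0.50 and −0.46 against 1.28 and 0.28. *Tbx18* (4.06 and 3.47 against 2.03 and 2.06) and *Tbx3* (2.38 and 2.35 against 1.14 and 0.68) were lower. *Tbx4*, the hindlimb T-box gene, was not called, at 1.69 and 1.50 against 2.17 and 1.17. With a library left out there were 0 to 3 higher calls, 3 only without the reporter− library numbered 3, and 1 to 2 lower calls.

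Ligands, receptors and inhibitors of the Wnt pathway were more often higher, with 15 of 40 called higher and 6 lower and a median of 0.31. The median was 0.116 with a pseudocount of 1, 0.199 with ribosomal centring, 0.175 without the reporter+ library numbered 3, 0.491 without the reporter+ library numbered 2 and 0.516 without the reporter− library numbered 3. Wnt proteins act through Frizzled receptors and LRP co-receptors, and secreted antagonists bind either side. Among ligands, *Wnt5a* stood at 1.35 and 1.50 against 2.94 and 2.66, *Wnt11* was higher by 2.13 and *Wnt10a* lower by 2.01. Among receptors, *Fzd4* stood at 0.12 and 0.09 against 2.75 and 2.83, a difference of 2.69 ± 0.17, and *Lrp6* was higher by 0.81 while *Fzd6* was lower by 2.19.

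Secreted Wnt antagonists were called in both directions. *Dkk2* stood at −0.90 and 0.70 against 2.43 and 3.40, *Sfrp2* at 0.52 and −0.04 against 3.47 and 2.82, and *Frzb* at −1.27 and 0.20 against 2.20 and 1.63. *Sfrp1* was higher by 1.37, and *Dkk3* was lower, at 7.19 and 7.03 against 5.63 and 5.79. Of the agonists and targets, *Rspo2* was lower by 1.58 and *Axin2* was higher by 1.13. Fits without a library gave 2 to 6 higher calls, 2 without the reporter+ library numbered 2, and 1 to 2 lower calls.

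Growth factor genes of the IGF, FGF, PDGF and VEGF families gave 17 higher and 5 lower calls among 36, with a median of 0.39. *Igf1* stood at 2.28 and 1.73 against 4.14 and 2.55, and *Igf2* at −1.69 and −0.88 against 2.40 and 0.85. *Fgf10* (1.52), the receptors *Fgfr2* (1.45) and *Fgfr1* (0.52), and the FGF-responsive genes *Spry1* (2.83), *Spry4* (1.41), *Etv4* (1.40) and *Etv5* (0.98) were all higher, while all cultures were labelled as grown with bFGF. Of the IGF-binding proteins, *Igfbp3*, *Igfbp4*, *Igfbp5* and *Igfbp7* were higher by 0.46 to 1.35, and *Igfbp2* (2.77 and 2.83 against −0.42 and 1.62) and *Igfbp6* (−1.13) were lower. Of the PDGF ligands, *Pdgfd* was higher by 2.65, and *Pdgfc* (−1.47) and *Pdgfa* (−0.67) were lower. When a library was dropped there were 1 to 6 higher calls, 1 without the reporter+ library numbered 2 and 2 without the reporter+ library numbered 3, and 0 to 3 lower calls.

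Of 37 TGF-β and BMP pathway genes, 5 were called higher and 8 lower. That is 13.5% and 21.6%, beside 11.5% and 9.79% of all genes, so the higher calls were near the share over all genes. The ligands *Tgfb1* (2.22 and 2.15 against 1.32 and 1.30) and *Tgfb3* (−0.76) were lower, and the receptor *Tgfbr1* was higher, at 2.14 and 2.46 against 4.05 and 3.35. *Gdf6* and *Inhba* were lower by 1.84 and 0.87, and *Gdf10* was higher by 3.35. Inhibitors were found on both sides, with *Fstl3* and *Chrd* lower and *Nog* and *Bambi* higher. The list's median was −0.096, and it was positive in 6 of the alternatives tried, up to 0.16 among members whose mean was 2 or more. Fits on 3 libraries gave 1 to 2 higher and 0 to 4 lower calls, 0 lower without either number 2 library.

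Cytokine and chemokine genes were mostly higher where they were called, in 11 of 27 against 2 lower, with a median of 0.61. It was 0.075 among members whose mean was 2 or more and 0.315 without the reporter+ library numbered 3. *Ccl9* stood at 2.38 and 1.38 against 5.06 and 5.26, and *Ccl6* at 1.36 and −0.18 against 3.50 and 2.87. Both are chemokines that macrophages also make. *Il1rn*, the interleukin 1 receptor antagonist, stood at 3.78 and 4.05 against 6.25 and 5.73, and *Lcn2*, or lipocalin 2, at 5.72 and 4.13 against 7.22 and 6.11. The serum amyloid genes *Saa1*, *Saa2* and *Saa3* were higher by 1.44 to 1.97. *Saa1* and *Saa2* are near copies whose reads may be shared, and *Saa2* changed sign without the reporter− library numbered 2. *Il33*, an alarmin, was lower at 5.64 and 5.26 against 4.17 and 3.15, and *Il6*, *Ccl2* and *Cxcl1* were not called. Leaving out a library gave 2 to 3 higher calls.

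**Figure D4:**
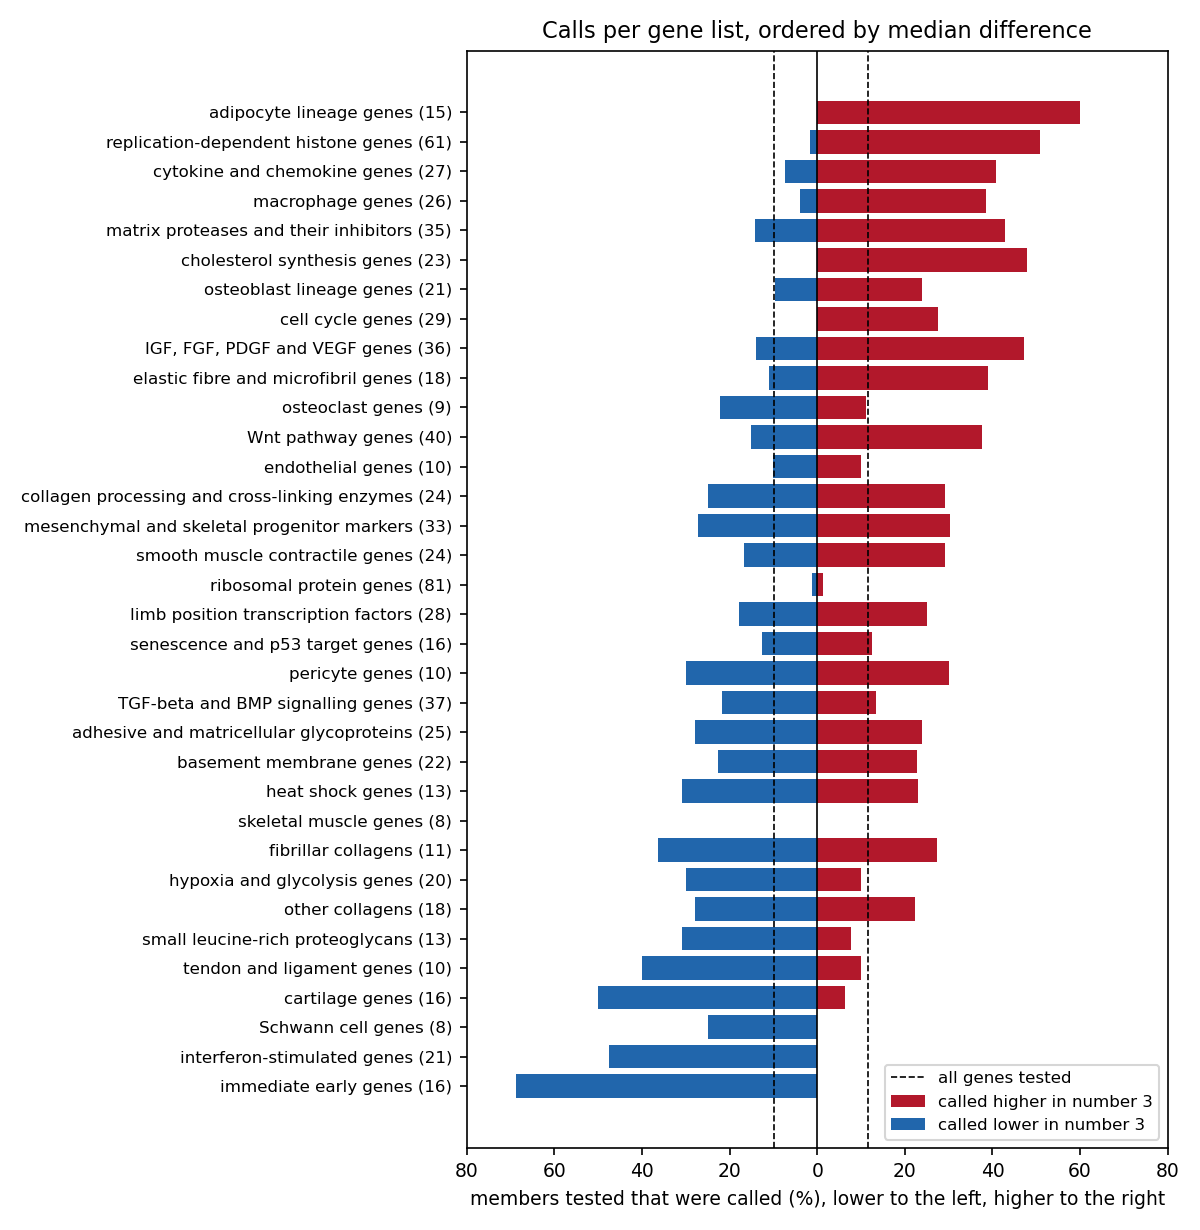
Percent of tested members called lower (left) and higher (right) in number 3 for each gene list with at least 8 tested genes, ordered by median difference, with dashed lines at the share over all genes, 9.79% lower and 11.5% higher. Adipocyte, histone and cholesterol synthesis genes lie to the right, immediate early and interferon-stimulated genes to the left, and matrix lists on both sides.

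Genes that report on the state of the cells differed in 4 lists with all calls in 1 direction. Immediate early genes, which are switched on within minutes by serum, stretch or handling, were lower in number 3, with 11 of 16 called lower and 0 higher (14 lower and 0 higher at an unadjusted p under 0.05 in limma) and a median of −1.09. *Dusp1*, a phosphatase that ends MAP kinase signals, stood at 5.11 and 5.50 in number 2 and at 2.94 and 2.73 in number 3, a difference of −2.47 ± 0.15 (adjusted p = 2.5e-05). *Egr1* stood at 3.84 and 4.37 against 1.75 and 2.46, and *Fos* at 2.57 and 2.98 against 1.13 and 0.97. *Ier3*, *Zfp36*, *Ier2*, *Junb*, *Klf6*, *Jun*, *Btg2* and *Atf3* were lower by 0.90 to 1.64. The medians in the populations were alike, at −1.12 in each. With a library left out there were 4 to 10 lower calls, 4 without the reporter+ library numbered 2 and 6 without the reporter− library numbered 2.

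Interferon-stimulated genes, which cells switch on after interferon binds its receptor, were called in the lower direction alone, and their differences were larger in the reporter+ libraries. Of 21 tested, 10 were called lower and 0 higher (14 and 0 at an unadjusted p under 0.05 in limma), with a median of −0.86. All 21 differences were below 0 in the reporter+ libraries, with a median of −1.46, and 15 were below 0 in the reporter− libraries, with a median of −0.40. *Ifit1*, which binds viral RNA, stood at 2.53 and 0.49 in number 2 and at −1.23 and −0.19 in number 3. *Ifi44* stood at 2.37 and 0.45 against −1.63 and −1.26, and *Isg15* at 2.00 and 0.80 against −1.02 and 0.68 without being called. The reporter+ library numbered 2 was the highest of the 4 in each of these 3 genes. Whether the difference between the numbers itself differed by population was not tested. Fits without a library gave 0 to 2 lower calls, 0 except without the reporter− library numbered 2, and 2 genes were called without a population block. *Ifit3* and *Ifit3b* are near copies whose reads may be shared.

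Promoter windows of 7 lists, chosen with the results known, were searched on both strands for 9 motifs, 63 combinations in all. A window is the 250 bases before a transcript start in the RefSeq table (GRCm38.p6). At least 1 window was found for 10889 of the 14415 genes, and a gene with several was counted 1 time, as holding a motif if any of its windows did. The core of the interferon-stimulated response element (TTTC, any 2 bases, TTTC) was present in 8 of 16 interferon-stimulated genes with a window, beside 3.15% of all genes with one. The promoters shown are of *Ifit1* (chr19:34640639-34640888, plus strand) and *Ifit3* (chr19:34583279-34583528, plus strand), chosen after the search because each holds the motif 2 times, with the motif in capitals. RefSeq gives *Ifit3* the span chr19:34583119-34588982, so that its window lies inside the gene, while that of *Ifit1* ends where the gene's span begins.
Ifit1: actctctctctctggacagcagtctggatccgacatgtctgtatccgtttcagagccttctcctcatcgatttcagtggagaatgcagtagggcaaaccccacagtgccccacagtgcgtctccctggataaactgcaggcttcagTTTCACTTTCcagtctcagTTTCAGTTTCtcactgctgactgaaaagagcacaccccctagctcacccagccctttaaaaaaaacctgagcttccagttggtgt
Ifit3: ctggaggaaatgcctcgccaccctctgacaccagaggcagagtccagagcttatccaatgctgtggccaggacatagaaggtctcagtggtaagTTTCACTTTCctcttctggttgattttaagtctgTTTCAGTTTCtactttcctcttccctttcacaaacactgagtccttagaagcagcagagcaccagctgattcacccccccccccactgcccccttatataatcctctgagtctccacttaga
A match describes the letters of the window and is no measure of binding.

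Genes of cholesterol and fatty acid synthesis were called in the higher direction alone, by small amounts. Of 23 tested, 11 were called higher and 0 lower (14 and 0 at an unadjusted p under 0.05 in limma), with a median of 0.50. *Sqle*, squalene epoxidase, stood at 1.63 and 1.89 against 3.09 and 2.85, a difference of 1.21 ± 0.16 (adjusted p = 0.0012). *Hmgcs1*, which makes HMG-CoA, stood at 2.59 and 2.90 against 3.65 and 3.42. Fatty acid synthase *Fasn* was higher as well, by 0.66. Centring on ribosomal protein genes left 2 calls, and leaving out a library left 0 to 2, 0 without the reporter+ library numbered 2.

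Cell cycle genes gave 8 higher and 0 lower calls among 29 (11 and 1 at an unadjusted p under 0.05 in limma), and the calls were genes of DNA replication with a single gene of mitosis. *Mcm5*, a subunit of the replicative helicase, stood at −0.86 and −0.68 in number 2 and at 0.99 and 0.93 in number 3, a difference of 1.73 ± 0.24 (adjusted p = 0.0013). *Mcm2*, *Mcm3*, *Mcm4* and *Mcm7* were higher by 0.61 to 1.22, as were *Pcna*, *Ccne1* and the mitotic kinase *Aurkb*. *Mki67*, the usual proliferation marker, was higher in number 3 in the reporter+ libraries (0.42 against 1.53) and lower in the reporter− libraries (1.61 against 1.10). Over the list 28 of 29 differences were above 0 in the reporter+ libraries and 14 in the reporter− libraries, with medians of 0.88 and −0.01. The reporter+ library numbered 2 had the lowest summed level, 6.37 beside 6.82 to 7.06 in the others. When a library was dropped there were 0 to 4 higher calls, 0 without that library and 2 without the reporter− library numbered 2.

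CCAAT, read on both strands, was found in all 13 cholesterol synthesis genes with a window and in 20 of 23 such cell cycle genes, beside 40.2% of all genes with one. The longer form TGATTGG, which contains it, was in 7 and 10 of them, beside 11.0%. The sterol-response motif TCACCCCA was in 2 of 13, beside 1.63%. The promoters of *Hmgcs1* (chr13:119690101-119690350, plus strand) and *Mcm5* (chr8:75109259-75109508, plus strand) are shown as examples with CCAAT or its reverse complement ATTGG in capitals. The end of the *Mcm5* window lies inside the span that RefSeq gives the gene, chr8:75109468-75128439.
Hmgcs1: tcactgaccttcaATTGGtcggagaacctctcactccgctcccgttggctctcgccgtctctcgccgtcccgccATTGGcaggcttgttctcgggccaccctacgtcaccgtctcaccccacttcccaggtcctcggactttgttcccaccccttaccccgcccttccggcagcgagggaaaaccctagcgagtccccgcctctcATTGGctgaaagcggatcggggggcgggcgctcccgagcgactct
Mcm5: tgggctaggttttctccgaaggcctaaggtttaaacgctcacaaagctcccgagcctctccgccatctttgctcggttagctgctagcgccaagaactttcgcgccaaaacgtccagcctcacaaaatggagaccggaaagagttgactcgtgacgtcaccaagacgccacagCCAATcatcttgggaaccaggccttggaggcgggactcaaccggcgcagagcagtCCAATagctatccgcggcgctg
Of the contractile genes, 4 of 19 with a window held a CArG box, beside 1.41%, and no adipocyte window held the PPAR motif (AGGTCA, any 1 base, AGGTCA), which was in 0.0367% of all genes with a window.

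**Figure D5:**
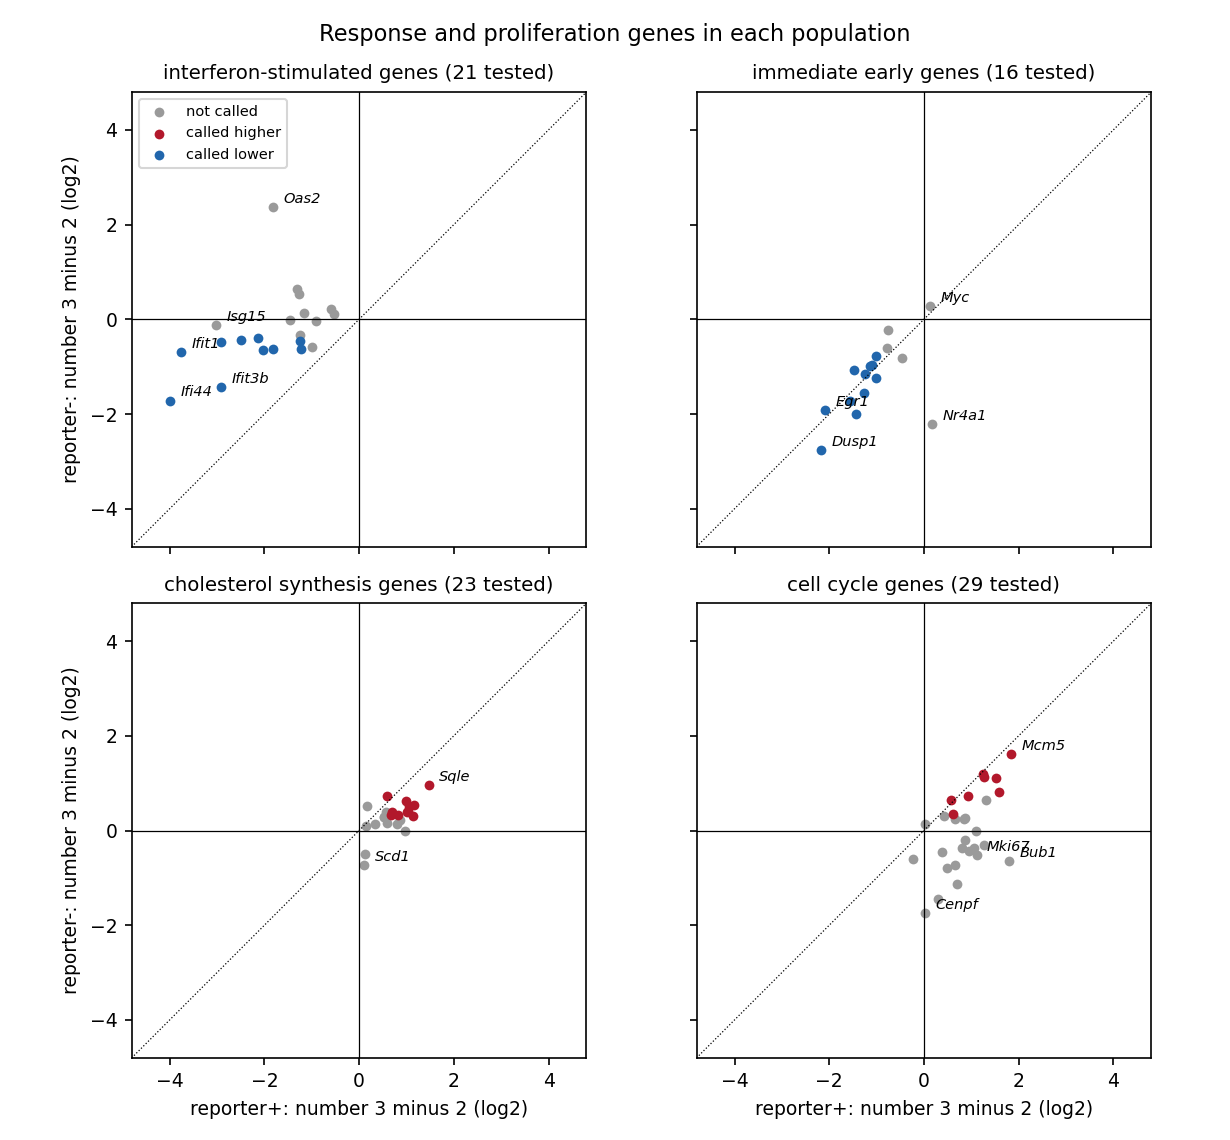
Difference between the numbers (log2) in PDGFRα reporter+ cells on the x axis and PDGFRα reporter− cells on the y axis for the tested interferon-stimulated, immediate early, cholesterol synthesis and cell cycle genes, with the diagonal drawn. Most immediate early genes lie along the diagonal below 0 (*Nr4a1* does not), whereas interferon-stimulated genes lie above the diagonal to the left and most cell cycle genes below it to the right.

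Replication-dependent histone genes gave 31 higher calls and 1 lower among 61 tested, with a median of 0.63. Their messages lack a poly(A) tail and are made in S phase. *Hist1h1a* stood at 0.30 and 0.98 against 2.29 and 2.32, and *Hist1h2bq* was the lower gene at 2.87 and 3.19 against 0.08 and 2.19. *Hist2h3c1* and *Hist1h2ap* could not be tested and went the other way, at 0.97 and 1.49 and at 0.82 and −0.03 in number 2, with blanks in number 3. Many are near copies whose reads may be shared. Fits on 3 libraries gave 1 to 10 higher calls, 1 without the reporter+ library numbered 2. Ribosomal protein genes gave 1 higher and 1 lower call of 81, with a median of 0.13. The shift was small but widely shared, with 71 of 81 differences above 0. In 51 of 81 both number 3 libraries lay above both number 2 libraries, while 36.4% of all genes did so.

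Hypoxia and glycolysis genes gave 2 higher and 6 lower calls among 20. *Car9*, a carbonic anhydrase induced by low oxygen, stood at 2.63 and 1.70 against 0.85 and −0.91, and *Adm* was higher by 1.06. Leaving out a library gave 0 to 4 lower calls, 0 without either number 2 library and 1 without the reporter− library numbered 3. Heat shock genes gave 3 higher and 4 lower of 13. The small heat shock genes *Hspb7* (3.15 and 3.81 against 0.07 and 0.77), *Hspb1* (−1.03) and *Cryab* (−0.86) were lower, and the mitochondrial chaperonins *Hspd1* and *Hspe1* were higher. In each fit without a library 1 heat shock gene was called lower, with 0 to 2 higher. Senescence and p53 target genes gave 2 in each direction of 16, or 12.5%, near the 11.5% higher and 9.79% lower over all genes. Neither *Cdkn1a* nor *Cdkn2a* was called. With a library left out 0 or 1 was called in each direction.

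Lists of markers of other cells that the sort could hold were short. Beside 21.3% called over all genes, 2 of 10 endothelial, 3 of 9 osteoclast, 2 of 8 Schwann cell and 0 of 8 skeletal muscle genes were called. Of the 10 endothelial genes tested, *Tek* was higher at −3.00 and −2.50 against 0.05 and 1.10 and *Erg* was lower at 0.40 and 0.96 against −2.46 and −2.23, while *Pecam1* and *Cdh5* were low and not called. Osteoclast genes gave 1 higher and 2 lower of 9, with *Nfatc1* lower by 1.47. Without a library 0 osteoclast genes were called higher, and 0 lower without either number 2 library and 1 without either number 3 library. Schwann cell genes gave 2 lower and 0 higher of 8, *S100b* (−1.38) and *Pmp22* (−1.28), with 7 of 8 differences below 0 and a median of −0.81, which was −0.047 with a pseudocount of 1 and −0.467 without the reporter− library numbered 2. Their summed level was 7.18 and 6.91 (log2) in number 2 and 5.83 and 5.72 in number 3, without overlap. *Pmp22*, which fibroblasts also express, stood at 7.14 and 6.86 against 5.80 and 5.65. Fits without a library gave 0 to 2 lower calls, 0 without the reporter+ library numbered 2. Skeletal muscle genes gave 0 calls of 8 in limma (1 higher and 1 lower at an unadjusted p under 0.05). Of the neutrophil, lymphocyte and erythroid lists 1 gene each had a value in all 4 libraries. Of these the neutrophil gene *Camp* was called higher. *S100a8*, which was not tested, stood at −4.21 and blank in number 2 and at 1.39 and −1.14 in number 3. *Elane* went the other way in the reporter− libraries, at −4.24 against −5.31, and was blank in reporter+. The Y-linked genes *Ddx3y*, *Kdm5d* and *Uty* were not called, and *Eif2s3y* was higher by 0.62.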

How the data were processed

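Total RNA of 4 samples was made into stranded libraries, read from both ends on an Illumina NextSeq, and the authors used Partek Genomics Suite and Spotfire. The submitters' processing notes name bcl2fastq 2.17.1.14, Partek 7.0 and GRCm38.p6 without a role. The deposited values are log2 expression, quantile normalized by the authors, 1 per gene symbol and library and blank without signal. The linear unit, aligner, counting, use of strand, annotation and filters are not given in the sources used here, so depth and counting error are unknown. Columns show population and number but not which labelled replicate, so libraries were assigned to their population only. Nothing says which libraries share animals or cultures, so a difference between the numbers may be technical. With 1 library per number and population, p-values rest on how unlike the differences in the populations were, moderated by other genes. They do not measure spread between replicate libraries.

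Genes without a blank were fitted with limma 3.58.1 in R 4.3.3 (number plus population, eBayes with a trend, 1 residual degree of freedom), with Benjamini-Hochberg adjustment over 14415 genes at 0.05. The script was tested on simulated data with 200 changed genes. Unchanged genes made up 4.05% of calls at a simulated difference of 1 and 7.43% at 2, the latter above the threshold. The simulated noise followed the fitted trend, so the test says nothing on whether that trend holds. Named genes were anchors of 40 gene lists, the 10 largest called differences each way with a mean of at least 0 and no overlap (predicted gene names left out), and up to 6 called members of a list. List members beyond these were named after their values were seen, and a few genes are not reported here. Members and lists were chosen with earlier results of these data known. Positions and promoters came from RefSeq, matched by symbol for 752 of 818 named and listed genes. Alternatives were no trend, no moderation, no population block, minimum means of 0 and 2, blanks filled, a pseudocount of 1, other centring, each library left out, and each population alone. Summaries used Python 3.11.15 with pandas 2.3.3 and numpy 2.4.6, and plots matplotlib 3.10.9.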

Additional observations from a re-analysis of the deposited data

Results flagged for a closer look

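In 16 of the named genes the difference between the numbers had opposite signs in the populations, with 1 library of each kind behind each sign. Whether the difference between the numbers itself differed by population was not tested. Each value that follows is the difference in PDGFRα reporter+ cells minus that in PDGFRα reporter− cells, on the log2 scale.

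The widest gap was in *Tnmd*, at 4.96, where the reporter+ libraries differed by 4.84 and the reporter− libraries by −0.12. *Il6* had a gap of 3.32, from 1.06 and −2.26. The osteoclast phosphatase *Acp5* had a gap of 2.04, from 0.64 and −1.39. *Cdh5*, the endothelial cadherin, had a gap of −2.95 at levels near the foot of the scale, and *Pecam1* a gap of −0.98. The proliferation genes *Mki67* and *Top2a* had gaps of 1.62 and 1.39. Among matrix genes the gap was 1.36 for *Tnc*, 1.18 for *Dcn* and 0.97 for *Lum*. It was −1.15 for *Nes*, −0.96 for *Sp7* and 0.80 for *Tbx4*. The glycolytic genes *Pgk1* and *Ldha* had gaps of 0.86 and 0.66, and *Cdkn2a* one of −0.55.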

How the results depend on the processing

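The counts of calls depended on the processing. The 1654 higher and 1411 lower genes became 0 and 0 without the trend of variance on level, with 3909 genes at an unadjusted p under 0.05, and 0 and 0 without moderation, with 1661 such genes. A minimum mean of 2 gave 721 and 672, filling blanks with the lowest value 670 and 586, a pseudocount of 1 on the linear scale 949 and 876, and centring on ribosomal protein genes 783 and 1192. Leaving out the trend among genes whose mean was 0 or more, or 2 or more, settings chosen after seeing the data, gave 1068 and 949 or 715 and 670. Without each library in turn the counts ranged from 150 to 420 higher and from 75 to 614 lower, and the smallest were without the PDGFRα reporter+ library numbered 2. These fits had no population block, and the lone library of a number was assumed to vary like the others. Of the calls under any of these settings that made calls, 91.5% to 100% were among the 3065, all in the same direction. Settings that changed only the test or the choice of genes left each gene's difference as it was, so its direction could not differ there. The cause of the shifts in the counts was not tested.

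The SD across genes of the difference between the numbers was 0.527 at a minimum mean of 2, 1.32 with blanks filled and 0.417 with the pseudocount. That of the difference between the populations was 0.216 and 0.188 at minimum means of 0 and 2, 0.908 with blanks filled and 0.155 with the pseudocount. The number kept the larger SD in each. Of 35 list medians, 33 moved by over 1.5 times or changed sign under at least 1 setting, each population alone included, and 14 changed sign. The exceptions were the immediate early genes and the growth factor genes.

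Of 233 named genes, 200 were called, and 19 changed sign under a setting other than each population alone, 3 of them called (*Kera*, *Saa2* and *Lyz2*). With each population alone included, 21 did. *Cdh5* became 0.171 with the pseudocount, and *Sp7* and *Tbx4* became −0.072 and −0.032 with ribosomal centring. With each library left out, differences ranged from −1.61 to 0.866 for *Acp5*, from −3.04 to 2.70 for *Cdh5*, from −0.150 to 0.405 for *Cdkn1a*, from −0.318 to 0.245 for *Cdkn2a*, from −0.825 to 0.363 for *Cxcl1* and from −0.557 to 1.42 for *Dcn*. They ranged from −1.90 to 0.700 for *Il6*, from −0.077 to 2.50 for *Kera*, from −0.353 to 0.121 for *Ldha*, from −1.56 to 0.759 for *Lum*, from −0.083 to 1.30 for *Lyz2* and from −0.297 to 0.895 for *Mki67*. For *Nes* they were −1.33 to 0.909, for *Pecam1* −1.45 to 2.22, for *Saa2* −0.525 to 4.46, for *Sp7* −0.251 to 0.320, for *Tbx4* −0.423 to 0.573, for *Tnc* −0.614 to 0.262 and for *Top2a* −0.104 to 0.629. No paired analysis was possible because the table's columns carry the numbers 2 and 3, which are the groups compared here, and not the replicate numbers of the labels. The population block already compares the numbers within each population. With the depth unknown, no counting error limits a value, and calls among low genes (795 of 3065 had a mean below 0) rest on the trend.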

Other observations

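Further genes with large differences were chosen after their values were seen. Angiotensinogen (*Agt*), the precursor of angiotensin, stood at 0.03 and −0.30 in number 2 and at 3.83 and 3.62 in number 3, and its type 1 receptor *Agtr1a* at 0.77 and −0.22 against 2.58 and 2.94, beside the receptor *Agtr2* already described. The deiodinases, which activate or inactivate thyroid hormone, were both higher, *Dio2* at 2.56 and 2.72 against 6.42 and 4.88 and *Dio3* at 2.15 and 3.24 against 5.36 and 6.38. *Aldh1a2*, which makes retinoic acid, stood at 0.89 and 2.57 against 4.99 and 4.50. Complement *C3* stood at 5.39 and 4.59 against 7.51 in both number 3 libraries. The imprinted genes *Plagl1* and *Peg10* were higher by 2.76 and 2.50.

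Integrins that bind collagen, also chosen after their values were seen, were called in both directions. *Itga11*, the partner of the β1 integrin for fibrillar collagen, stood at 4.82 and 5.03 against 2.07 and 2.00, and *Itga10* at 1.99 and 2.03 against −1.04 and −0.15. *Itga2* was higher, at −2.55 and −2.01 against 0.16 in both number 3 libraries, and *Itga1* stood at 2.05 and 1.85 against 2.46 and 2.09 without being called. The calcium channels *Trpv4* and *Trpm6* were lower by 2.52 and 2.85. The surface protein *Cd109* was lower by 3.02 and the annexin *Anxa8* by 3.07. All of the genes in these paragraphs except *Itga1* were called in limma with population as a block.

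Genes without a value on 1 side were left out of the test. There were 217 with values in both number 3 libraries and blanks in both number 2 libraries, and 138 of the opposite kind. Among the 217, *Plin1* and *Ces1f* had the highest means, with *Ces1f*, a carboxylesterase, at 1.70 and 1.44. Among the 138, the histone genes *Hist2h3c1* and *Hist1h2ap* had the highest means.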
